A study of Mus musculus with 2 samples.

Results

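Genes of mitosis and of the mitotic spindle were compared between a pair of sorted mouse bone marrow populations. The genes were chosen by symbol: 47 genes for mitotic cyclins and kinases, the spindle checkpoint, kinetochores, spindle motors, cytokinesis and condensin. Of these, 46 had a probe set annotated to that gene alone, out of 19935 genes measured in this way. The exception was Ccnb1, the gene of cyclin B1, which was not analysed here.

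The study concerns osteoclast precursors. RNA came from mononuclear marrow cells of ddY mice, an outbred strain, aged 6 weeks, with no treatment named. One group was RANKhigh c-Fmslow cells and the other RANKlow c-Fmshigh cells, sorted after antibody staining for RANK, through which RANKL drives osteoclast differentiation, and for c-Fms, through which M-CSF acts on myeloid cells. Each group was 1 array of amplified RNA, and the number of mice behind it is not stated in the labels. With a single measurement per group, no test or standard error is possible and differences are not checked by replication. The groups are called RANKhigh cells and c-Fmshigh cells, and every log2 difference is the value in RANKhigh cells minus that in c-Fmshigh cells. Where 2 intensities are set against each other, that of RANKhigh cells comes first, and the log2 difference follows in brackets. The transcript of c-Fms followed its label, with a Csf1r intensity of 164 in RANKhigh and 821 in c-Fmshigh cells. That of RANK did not, with Tnfrsf11a at 104 and 119, so the group names refer to the surface stain. Both Tnfrsf11a values came from 1 probe set and were low, not far above the background guide given below (83.7 and 81.8).

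A cell that enters mitosis activates Cdk1 with cyclins A and B, condenses its chromosomes, builds a bipolar spindle and attaches each chromosome to it through a kinetochore. The spindle checkpoint holds the cell until all kinetochores are attached. The anaphase-promoting complex, a ubiquitin ligase, then marks cyclin B and securin for destruction, sister chromatids separate, and the central spindle and a contractile ring divide the cell. Most of these genes are transcribed in G2 and mitosis, so in marrow, where erythroblasts, early B cells and myeloid progenitors divide, their RNA is widely used as a measure of proliferation.

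Most of the genes were slightly higher in RANKhigh c-Fmslow cells, and few differed by much. Of the 46 genes, 38 (82.6%) were higher in RANKhigh cells by any amount, against 48.5% of the 11089 genes that passed a level filter (a higher value of at least 93.6, the median of all values). Their median log2 difference was 0.34, a 1.27-fold excess, against -0.01 over those 11089 genes, of which 19.4% lay above the members' median. At a fold of 1.5 or more, 6 genes (13%) were higher in RANKhigh cells, against 10.5% of all genes past the filter. In the other direction 1 gene (2.17%) was at least 1.5-fold lower there, against 12.4%. The remaining 39 lay within 1.5-fold, where 77.1% of all genes lay. No member reached 2-fold, which 4.34% of all genes did upward and 4.26% downward. The share of genes past 1.5-fold upward was thus near the background on the deposited scale. Under quantile normalization it was not, with 12 members (26.1%) at least 1.5-fold higher against 10.7% of all genes, and with no level filter the members' 13% stood against 6.16%. The members' median ranged from 0.31 to 0.42 over the 8 alternatives tried, though those on level filter and probe sets could hardly move it. In sorted bulk RNA, more dividing cells and more RNA per dividing cell cannot be told apart.

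All 46 genes passed the level filter. On both arrays each stood above 95% of the 1193 olfactory and vomeronasal receptor genes (83.7 in RANKhigh and 81.8 in c-Fmshigh cells), which served as a guide to background. Intensities of the members ran from 126 (Espl1 in c-Fmshigh cells) to 3308 (Mki67 in RANKhigh cells), and because probes differ in brightness these are not ranked between genes. Without replicates, the only measure of error within an array is the disagreement between probe sets of the same gene. Among 558 genes with 2 probe sets, the gap between the 2 log2 differences had a median of 0.19 and a 90th percentile of 0.67. Of the 46 members, 32 differed by at least the former and 6 by at least the latter. Of the 11089 genes past the level filter, 6915 and 2058 did, so reaching either gap does not set a member apart. The 6 members were Ube2c, Foxm1, Mki67, Nusap1, Kif4 and, in the opposite direction, Racgap1.

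**Figure D1:**
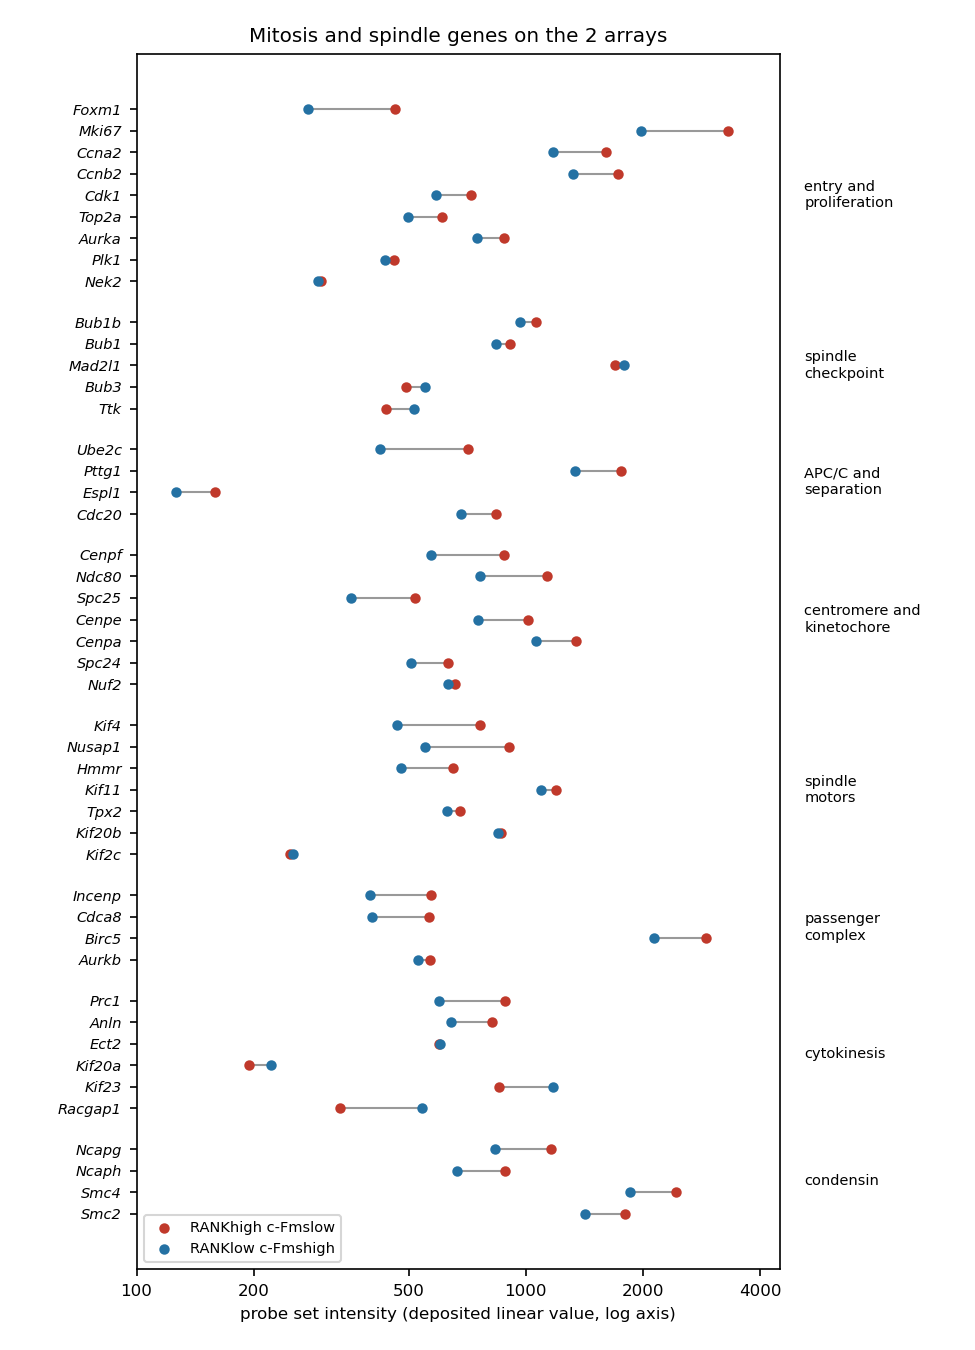
Intensity of each of the 46 mitosis and spindle genes on the RANKhigh c-Fmslow array (red) and the RANKlow c-Fmshigh array (blue), on a log axis, grouped by role, with 1 array per group. The red point lies to the right for 38 genes, and every pair lies within 2-fold.

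The promoters of these genes share elements that the choice of genes did not use. Mitotic genes are known for a cell cycle homology region (CHR) near the transcription start, bound by the MuvB complex, and for CCAAT boxes upstream of it, bound by NF-Y. Promoter windows from RefSeq (GRCm38.p6, from 250 bases before the start to 50 after it) were available for 39 of the 47 genes. A CHR was searched as TTTGAA or TTCGAA on both strands (TTCGAA reads the same on either), and a CCAAT box as CCAAT on both strands; the motifs cannot overlap in letters except at their ends. Of the 39 windows, 30 (76.9%) held a CHR, against 19.5% of 27025 genes with a window and 14.3% of the 8909 such genes that passed the level filter. Within 50 bases of the start it was present in 28 (71.8%), against 5.31% and 3.77%. A CCAAT box was found in 29 (74.4%), against 38.0% and 38.7%, and both elements in 26 (66.7%), against 7.73% and 5.96%. The letters GGCGG, also searched on both strands, were in 35 (89.7%), against 48.9% of all genes but 79.9% of those past the level filter. A match describes letters in the window and is not a measured binding site.

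The following 30-base stretches, read 5′ to 3′ on the strand of the gene, show the CHR in capitals (TTCAAA where it lies on the other strand). They were chosen from genes at both ends of the range of differences and from the middle, and most lie at or just past the start.
Ube2c, chr2:164769888-164769917, plus strand: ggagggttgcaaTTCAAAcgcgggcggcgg
Kif4, chrX:100626072-100626101, plus strand: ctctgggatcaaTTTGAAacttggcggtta
Cenpf, chr1:189688067-189688096, minus strand: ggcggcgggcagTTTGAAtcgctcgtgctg
Ndc80, chr17:71526811-71526840, minus strand: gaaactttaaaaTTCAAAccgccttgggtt
Prc1, chr7:80294434-80294463, plus strand: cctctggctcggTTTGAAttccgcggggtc
Ccnb2, chr9:70421533-70421562, minus strand: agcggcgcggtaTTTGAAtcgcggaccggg
Cdk1, chr10:69352910-69352939, minus strand: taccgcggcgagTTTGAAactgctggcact
Plk1, chr7:122159453-122159482, plus strand: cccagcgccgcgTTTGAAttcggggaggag
Ttk, chr9:83834684-83834713, plus strand: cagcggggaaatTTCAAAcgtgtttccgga
Kif23, chr9:61946780-61946809, minus strand: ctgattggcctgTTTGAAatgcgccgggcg
Racgap1, chr15:99651634-99651663, minus strand: ctggtgcgtgatTTTGAAccggatctggcg
The element was present in Ube2c, which had the highest difference of the 46 genes (0.76), and also in Racgap1 and Kif23, which had the lowest (-0.70 and -0.46). Among the 38 measured genes with a window, the 28 with a CHR within 50 bases of the start had a median log2 difference of 0.32, and 23 of them were higher in RANKhigh cells. The 10 without it had a median of 0.40, and 8 were higher. These medians are a description, with no test.

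Longer stretches upstream are shown for 4 genes, with CCAAT boxes and CHR matches of either strand in capitals. They comprise 120 bases just before the outer end of the gene model, which is the transcription start used for Ube2c, Cdk1 and Racgap1. The stretch of Mki67 lies farther out, from base -191 to base -72 relative to the start used for the motif distances, so its counts of boxes are not set against the others.
Ube2c, chr2:164769809-164769928, plus strand: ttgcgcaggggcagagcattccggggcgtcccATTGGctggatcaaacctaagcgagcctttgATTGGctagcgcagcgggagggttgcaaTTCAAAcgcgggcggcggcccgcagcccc
Mki67, chr7:135716451-135716570, minus strand: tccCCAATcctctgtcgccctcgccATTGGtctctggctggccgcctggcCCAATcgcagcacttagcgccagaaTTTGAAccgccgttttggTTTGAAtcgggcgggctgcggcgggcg
Cdk1, chr10:69352913-69353032, minus strand: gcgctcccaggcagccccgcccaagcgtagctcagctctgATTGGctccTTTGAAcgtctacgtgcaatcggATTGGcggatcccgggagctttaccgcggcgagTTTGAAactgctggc
Racgap1, chr15:99651657-99651776, minus strand: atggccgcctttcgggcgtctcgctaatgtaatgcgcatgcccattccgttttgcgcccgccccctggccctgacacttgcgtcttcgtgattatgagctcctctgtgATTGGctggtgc
In these stretches Ube2c had 2 CCAAT boxes and 1 CHR, Cdk1 2 and 2, and Racgap1 1 and 0, its CHR lying 5 bases past the start. That of Mki67 held 3 CCAAT boxes and 2 CHR matches.

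**Figure D2:**
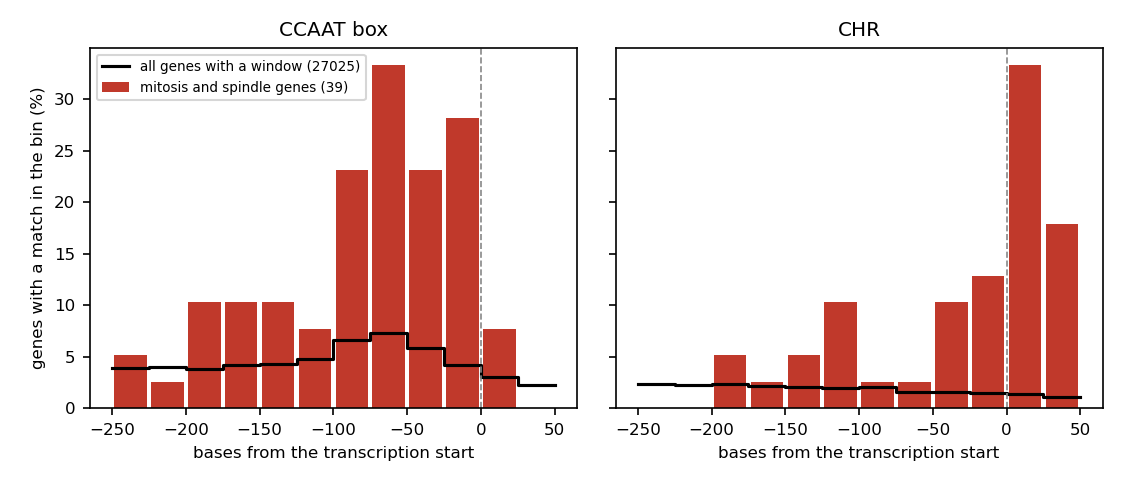
Share of genes with a CCAAT box (left) or a CHR (right) that begins in each 25-base bin, by distance from the transcription start (dashed line), for 39 mitosis and spindle genes (bars) and for all 27025 genes with a window (black line). CCAAT boxes of the mitosis genes were most frequent from 75 to 50 bases before the start (33.3% of genes against 7.29%), and CHR matches in the first 25 bases after it (33.3% against 1.39%).

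Genes of mitotic entry and proliferation were all at or above equality. Of 10 genes in this role 9 were measured, 9 were higher in RANKhigh cells and 2 of them at least 1.5-fold, with a median of 0.30. Foxm1, the transcription factor that drives the G2 and mitosis programme, reached 461 in RANKhigh and 275 in c-Fmshigh cells, a 1.68-fold excess (0.75). Mki67, which encodes the Ki-67 protein that coats mitotic chromosomes, stood at 3308 against 1982 (0.74). The cyclin genes followed at smaller size. Ccna2, whose cyclin A2 acts from S phase to early mitosis, stood at 1609 against 1177 (0.45). For Ccnb2, a B-type partner of Cdk1, the values were 1725 and 1325 (0.38). Cdk1 itself, the kinase that triggers mitosis, stood at 724 against 589 (0.30). Top2a, the topoisomerase that untangles sister chromatids, was the only member with 2 probe sets. They gave 3243 against 2793 (0.22) and 114 against 88.9 (0.36), the second of them close to the background guide, and their mean difference was 0.29. The genes of centrosome kinases differed least. Aurka, needed for centrosome maturation, stood at 877 against 748 (0.23), Plk1, a kinase of centrosomes and kinetochores, at 460 against 434 (0.08), and Nek2, which promotes centrosome separation, at 297 against 293 (0.02, and -0.01 when each array was scaled to its median).

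Spindle checkpoint genes showed little difference. Of 5 genes, 2 were higher and 3 lower in RANKhigh cells, none by 1.5-fold, with a median of -0.08 that became 0.07 under quantile normalization. Bub1b, which encodes the checkpoint protein BubR1, stood at 1065 against 968 (0.14), and Bub1, the kinase that recruits checkpoint proteins to kinetochores, at 910 against 838 (0.12). Mad2l1, whose product Mad2 inhibits Cdc20, stood at 1691 against 1789 (-0.08, and 0.07 under quantile normalization). Bub3, the partner of both Bub kinases, stood at 492 against 550 (-0.16). The lowest was Ttk, the checkpoint kinase Mps1, at 437 against 516 (-0.24).

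Genes of the anaphase-promoting complex and of sister separation, as grouped among the members, were all higher in RANKhigh cells. Of 4 genes, 4 were higher and 1 at least 1.5-fold, with a median of 0.36. Ube2c, the ubiquitin-conjugating enzyme of the anaphase-promoting complex, stood at 712 against 422 (1.69-fold, 0.76), the highest difference among the 46. Pttg1, which encodes securin, the inhibitor of separase, stood at 1757 against 1342 (0.39). Espl1, the gene of separase, the protease that cleaves cohesin, followed at 159 against 126 (0.34). Cdc20, the activator of the ligase and the target of the checkpoint, stood at 841 against 680 (0.31). The range over these genes was 0.31 to 0.76, beside -0.24 to 0.14 over the checkpoint genes.

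All 7 centromere and kinetochore genes were higher in RANKhigh cells, with a median of 0.43. Cenpf, a large kinetochore protein of G2 and mitosis, was 1.54-fold higher at 879 against 570 (0.63), the member nearest above the fold of 1.5. The nearest below it was Ndc80, at 1132 against 764 (1.48-fold, 0.57). Ndc80 is the microtubule-binding subunit of the NDC80 complex, whose other subunits differed by unequal amounts. Spc25 stood at 519 against 355 (0.55), Spc24 at 632 against 506 (0.32), and Nuf2, the direct partner of Ndc80, at 657 against 631 (0.06). The kinetochore motor gene Cenpe stood at 1014 against 754 (0.43). Cenpa, the histone H3 variant that marks centromeres, stood at 1349 against 1063 (0.34).

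Spindle motors and microtubule proteins were divided into a higher and a level set. Of 7 genes, 6 were higher in RANKhigh cells, 2 of them at least 1.5-fold, with a median of 0.13. Kif4, a chromokinesin of chromosome arms and the central spindle, stood at 765 against 466 (0.72). Nusap1, a microtubule-bundling protein near chromosomes, reached 905 against 550 (0.72). Hmmr, a spindle protein also known as a hyaluronan receptor, stood at 651 against 477 (0.45). The remaining genes lay within 10% of equality. These were Kif11, the motor that pushes the spindle poles apart (1196 against 1094, 0.13), Tpx2, the activator of Aurora A (679 against 627, 0.12), Kif20b, a midzone kinesin (863 against 851, 0.02) and Kif2c, a microtubule depolymerase (248 against 252, -0.02). The sign of Kif20b turned to -0.01 when each array was scaled to its median.

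The chromosomal passenger complex, which corrects faulty attachments and later moves to the central spindle, was higher in RANKhigh cells in all 4 subunits, none by 1.5-fold, with a median of 0.46. Incenp, the scaffold, stood at 572 against 397 (0.53). For Cdca8, which encodes borealin, the values were 563 and 403 (0.48). Birc5, which encodes survivin, stood at 2903 against 2142 (0.44). Its kinase gene Aurkb was nearly level at 566 against 529 (0.10), as Plk1 was among the kinases of mitotic entry.

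The 2 lowest differences of all members were among the cytokinesis genes, whose values went both ways. Of 6 genes, 2 were higher and 4 lower in RANKhigh cells, and the median was -0.10. Racgap1 and Kif23 encode the 2 proteins of centralspindlin, which bundles the central spindle and positions the cleavage furrow, and both were lower. Racgap1 stood at 333 in RANKhigh and 542 in c-Fmshigh cells, 1.63-fold lower (-0.70), and Kif23 at 852 against 1176, 1.38-fold lower (-0.46). Ect2, the exchange factor for RhoA that binds centralspindlin, was level at 600 against 603 (-0.01, and 0.07 under quantile normalization). Kif20a, the kinesin that carries the passenger complex to the midzone, stood at 195 against 222 (-0.19). By contrast Prc1, which crosslinks midzone microtubules, was 1.47-fold higher at 882 against 599 (0.56), and Anln, the anillin of the contractile ring, stood at 820 against 642 (0.35). Single-array values cannot show whether Racgap1 and Kif23 differ from the other members beyond error. Racgap1 reached the 90th percentile of the probe set gap (0.67), as did 2058 of the 11089 genes past the level filter.

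Condensin was the most even role, with all 4 subunits higher in RANKhigh cells in the narrow range from 0.34 to 0.47. The ATPase genes Smc4 and Smc2, which form the core of condensin, stood at 2438 against 1851 (0.40) and at 1803 against 1422 (0.34). The condensin I genes Ncapg and Ncaph stood at 1161 against 836 (0.47) and at 884 against 666 (0.41). None reached 1.5-fold. The other condensin genes, Ncapd2 of condensin I and Ncapd3, Ncapg2 and Ncaph2 of condensin II, were also higher, in the range from 0.15 to 0.30. They were grouped with their values in view.

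**Figure D3:**
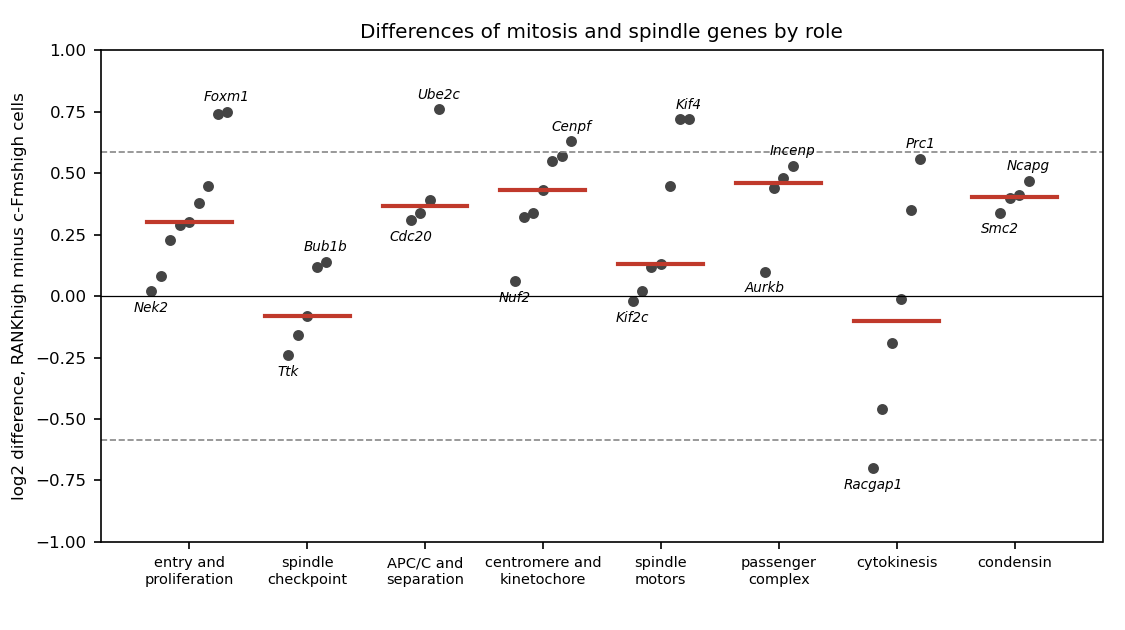
Log2 difference (RANKhigh minus c-Fmshigh cells) of the 46 genes by role, with 1 point per gene, a red line at the median of each role and dashed lines at 1.5-fold. All genes of 5 roles lie above 0, whereas the checkpoint (median -0.08) and cytokinesis genes (median -0.10) spread around it.

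A list of 105 other mitosis genes showed a smaller median excess, though a larger share of them was at least 1.5-fold higher. Of 103 measured, 66 (64.1%) were higher in RANKhigh cells and the median was 0.15, against 0.34 for the 46 members. At least 1.5-fold, 19 were higher (18.4%), against 13% of the members and 10.5% of all genes past the level filter. Among the 19 was Oip5, with both values below the background guide. In the other direction 4 (3.88%) were at least 1.5-fold lower, against 2.17% and 12.4%. At least 2-fold, 1 was higher and 1 lower. The former was Fbxo5, whose product Emi1 inhibits the anaphase-promoting complex, at 2321 against 1121 (2.07-fold). The latter was Cep55, a midbody protein needed for abscission at the end of cytokinesis, at 264 against 600 (2.27-fold lower). Mis18a, which licenses the loading of Cenpa, stood at 321 against 630 (-0.97), and Cdc25b, a phosphatase that activates Cdk1, at 415 against 216 (0.94). Other genes of cytokinesis in this list, named after their values were seen, went both ways. Cit, the citron kinase of the midbody, stood at 283 against 184 (0.62) and its kinesin partner Kif14 at 242 against 163 (0.58). Arhgap11a, at 1018 against 1423 (-0.48), and Shcbp1, at 603 against 761 (-0.34), were lower.

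Smaller groups within that list, formed by textbook role with values in view, differed in their medians. Of 5 other kinesins 3 were at least 1.5-fold higher, Kif18b (0.90), Kif18a (0.88) and Kif22 (0.64), and the median was 0.64. The inner kinetochore genes had a median of 0.32, with 9 of 13 higher, led by Cenpp (0.88), Cenpc1 (0.63) and Cenpk (0.59). Of 10 regulators of Cdk1, 9 were higher, with a median of 0.33; Pkmyt1, an inhibitory kinase, stood at 330 against 210 (0.65) and Cks2 at 2951 against 2089 (0.50). Outer kinetochore partners had a median of 0.12, with 9 of 16 higher. Cohesin and its protectors were level (median 0.01, 5 of 9 higher), with Sgo1, the protector of centromeric cohesin, at 505 against 325 (0.64). Subunits and regulators of the anaphase-promoting complex had a median of -0.05, with 5 of 15 higher. Anapc4 (-0.84) and Anapc11 (-0.60) were lower, while Fbxo5 (1.05) and Fzr1 (0.63), both regulators of the ligase, were higher. Among the members, Ube2c and Cdc20, which serve the same ligase, had differences of 0.76 and 0.31.

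DNA replication genes, which act in S phase, were nearer to equality than the 46 members, but close to the other mitosis genes (median 0.15, 64.1% higher). Of 51 measured, 31 (60.8%) were higher in RANKhigh cells, and the median was 0.10. At least 1.5-fold, 4 (7.84%) were higher and 1 (1.96%) lower, against 10.5% and 12.4% of all genes past the level filter. The transcription factor gene E2f2 stood at 228 against 122 (0.90), Ccne1, the cyclin of S phase entry, at 514 against 290 (0.82), Orc6, an origin recognition subunit, at 774 against 479 (0.69) and Rrm2, a ribonucleotide reductase subunit, at 2191 against 1395 (0.65). Of 5 inhibitors of cyclin-dependent kinases past the level filter, 4 were higher, with a median of 0.38. The sixth, Cdkn1c, was below the background guide on both arrays (82.6 and 80.2). Cdkn2c, which encodes p18, stood at 495 against 267 (0.89), Cdkn2d, which encodes p19, at 316 against 224 (0.50) and Cdkn1b, which encodes p27, at 714 against 581 (0.30). Cdkn2a had intensities of 94.7 and 73.0, and only the first was above the background guide. Genes of the DREAM and MuvB complexes, which act on the CHR, had a median of -0.08, with 4 of 12 higher. E2f4 (757 against 381, 0.99) and Tfdp2 (729 against 397, 0.88) were higher, and Rbl1 (582 against 897, -0.62) and Lin54, the subunit that binds the CHR (367 against 487, -0.41), were lower.

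**Figure D4:**
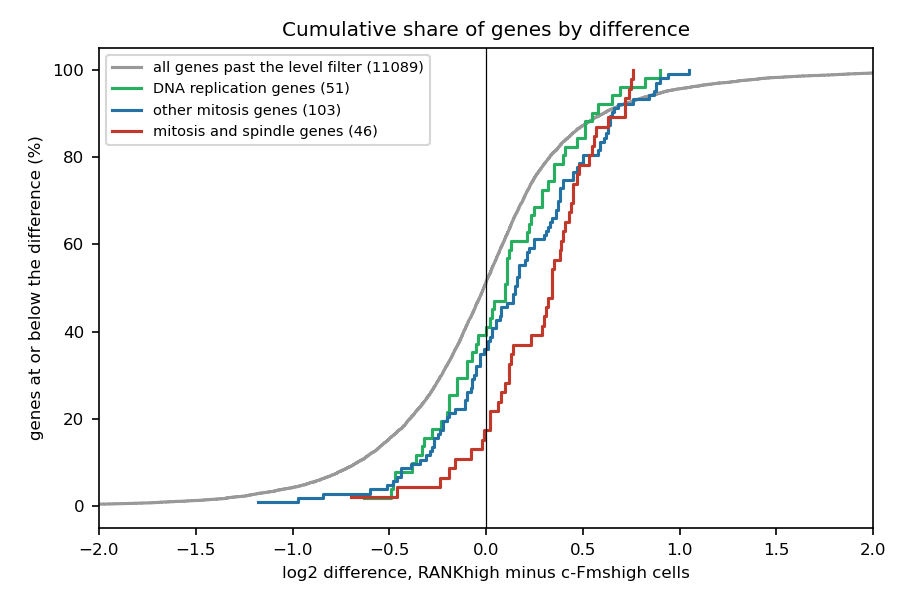
Cumulative share of genes by log2 difference (RANKhigh minus c-Fmshigh cells) for the 46 mitosis and spindle genes (red), 103 other mitosis genes (blue), 51 DNA replication genes (green) and the 11089 genes past the level filter (grey; the axis is limited to 4-fold either way). The red curve crosses its midpoint at 0.34, the blue at 0.15, the green at 0.10 and the grey at -0.01.

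Markers of several cell types differed far more between the arrays than the mitotic genes did. Of 11 measured erythroid markers, 11 were 2-fold or more higher in RANKhigh cells (median 2.35, summed intensity 13818 against 3457), as were 11 of 12 early B cell markers (median 1.71, 13526 against 3837) and 7 of 9 mature B cell markers (median 1.83, 6550 against 1900). A lower value under the background guide was set to the guide for these counts, which leaves out Cxcr5 (104 in RANKhigh cells and below the guide in the others) and the eosinophil gene Il5ra (98.9 against 47.9). Late neutrophil markers had a median of 2.46 (9 of 11 at least 2-fold, 43919 against 14025), eosinophil markers 1.87 (4 of 7, 12331 against 1283) and basophil and mast cell markers 1.56 (5 of 7, 3400 against 871). T cell markers had a median of 0.67, with 3 of 9 not above the background guide on either array, and megakaryocyte markers one of 0.69 over 5 genes. Among the 7 NK cell markers, 3 reached 2-fold upward and 3 were not above the guide on either array, among them Ncr1 (76.8 against 40.9), so no median is given. The 6 plasma cell markers went both ways, with 3 past 2-fold upward and 2 past 1.5-fold downward, Prdm1 (79.4 against 154) and Xbp1 (200 against 324). Monocyte markers were lower in 9 of 9 cases, 6 of them at least 2-fold (median -1.98, 4016 against 17522). The 6 include Csf1r (164 against 821), the gene of c-Fms, by which the cells were sorted. Primary granule markers of early neutrophil development had a median of -0.46 (2 of 5 higher, 6315 against 7869). Stem and early progenitor markers had one of 0.10 (4 of 7 higher, 997 against 1166), with Procr, the median gene, below the guide on both arrays. Over the 6 of them past the level filter the median was -0.14, with 3 higher. Of 10 osteoclast markers (median 0.07), 5 were not above the background guide on either array. The 4 past the level filter had a median of 1.71. Of these, 3 were at least 2-fold higher, namely Car2 (3300 against 824), Mmp9 (277 against 75.2) and Acp5 (546 against 188). Itgb3 was lower (131 against 209). Mmp9, whose lower value is below the guide, is also counted among the late neutrophil markers. Stromal and endothelial markers (median -0.10, 3 of 7 not above the guide) showed no common direction. The part of these cell types in the difference of the mitotic genes was not tested.

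**Figure D5:**
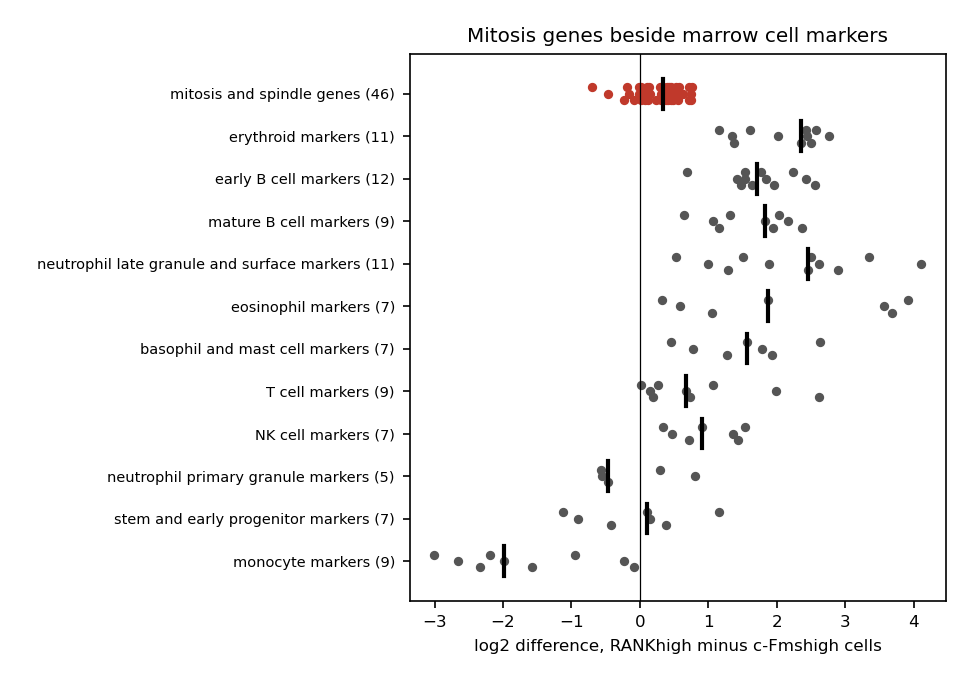
Log2 difference (RANKhigh minus c-Fmshigh cells) of the mitosis and spindle genes (red) and of marker genes of marrow cell types (grey), with 1 point per gene, a black bar at each median and the number of genes in brackets. Points and medians include genes below the background guide on both arrays, such as 3 of the 7 NK cell markers. The mitotic genes lie between -0.70 and 0.76, whereas erythroid markers have a median of 2.35 and monocyte markers one of -1.98.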

How the data were processed

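Single-channel arrays of amplified RNA were measured in 2 samples, 1 per group; no depth applies, and the number of arrays limits the precision. The authors deposited linear intensities from 19.9 to 13453, with GCOS 1.4 and RMA named in the submitters' processing notes; the role of each, and the way from the log2 output of RMA to a linear scale, is not given in the sources used here. Background correction and normalization between arrays were the authors'. The platform annotation of 2016 gave 1 gene for 21780 of 28815 probe sets, several for 1605 and none for 5430, which it does not list. Entrez identifiers of 21689 were in the RefSeq gene table (GRCm38.p6), with 0 symbols changed. Intensities were put on the log2 scale without pseudocount and averaged over probe sets per gene (Top2a has 2), with pandas 2.3.3 and numpy 2.4.6. With 1 array per group no test was run; genes were counted at folds of 1.5 and 2. Where a lower value was not above the background guide, no fold is given; counts over all genes use the values as measured.

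The members and lists were chosen with earlier results of these data known. Every member is named; of other lists, up to 4 genes with the largest absolute difference among those past the level filter. Promoter windows came from RefSeq, 1 per gene, at the farthest upstream start that the table lists. Alternatives were 3 scalings between arrays, the highest probe set, a pseudocount, probe sets naming several genes, no level filter and a level filter of 200.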

Additional observations from a re-analysis of the deposited data

How the results depend on the processing

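The median log2 difference of the mitosis and spindle genes ranged from 0.31 to 0.42 over the 8 alternatives. Between 36 and 40 genes were higher in RANKhigh cells, and 1 gene was at least 1.5-fold lower in each. Several alternatives could hardly move these values. All members pass the level filter, so leaving it out changes none of them, and the filter of 200 only drops Espl1. The choice of probe sets changed Top2a alone among the members. A pseudocount shrinks a difference without turning its sign. Median and 75th percentile scaling shift all genes of an array alike, and the array medians were already close (94.5 and 92.6). Both left the members' median 0.35 above that of all genes past the filter, as on the deposited scale, so they could hardly turn the direction either. Under quantile normalization, which shifts genes by unequal amounts, the members' median was 0.42. Under quantile normalization 12 genes (26.1%) were at least 1.5-fold higher in place of 6, against 10.7% of all genes. With no level filter 6.16% of all genes, in place of 10.5%, were at least 1.5-fold higher, because dim genes that differ little then enter. With a level filter of 200 the median over all genes was -0.08 and that of the 45 members that passed 0.34. The share of all genes at least 1.5-fold higher was 8.34% with a pseudocount and 12.9% with a level filter of 200, beside 13% and 13.3% of the members. No median log2 difference of a role or related list moved by more than 0.19, the median probe set gap. The signs of Mad2l1 and Ect2 turned under quantile normalization, and those of Kif20b and Nek2 under median scaling. No paired analysis was possible because each group has 1 array and the labels carry no replicate numbers.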

Other observations

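Genes of G1 control, a list written after the other values had been seen, were also mostly higher in RANKhigh cells, with a median log2 difference of 0.22. Of 11 genes, 9 (81.8%) were higher and 4 (36.4%) at least 1.5-fold, against 48.5% and 10.5% of all genes past the level filter. The list shares Ccne2 and Ccne1, which is 1 of the 4, with the DNA replication list. Ccnd2, the D-type cyclin prominent in lymphoid cells, stood at 1111 against 579 (0.94), Myc at 710 against 409 (0.79) and Rb1, the restraint on E2F factors, at 1615 against 1058 (0.61). Ccnd1 and its kinase gene Cdk4, named after their values were seen, were the exceptions, with Ccnd1 at 91.1 against 124 (-0.45) and Cdk4 at 959 against 1314 (-0.45).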
